A study of Mus musculus with 4 samples.

Results

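The genes described here are 35 enzymes, carriers and regulators of the glutathione and thioredoxin systems and of the removal of superoxide and peroxides, chosen by name. All 35 were found among the 22672 named genes of the deposited count table, and all 35 were among the 12758 genes that passed a filter on low counts and were tested. RNA was sequenced from splenic T cells of Pmel mice, whose transgenic receptor recognises an epitope of gp100, a protein of pigment cells. All samples were activated for 72 h with 1 µg/ml of that peptide and 100 U/ml of IL-2. The label SphK1 -/-, for a deficiency of sphingosine kinase 1 on the Pmel background, was on 2 libraries, and WT control was on the other 2. The labels give neither the age or strain of the mice nor the exons removed, and separate animals or cultures behind the libraries of a label are not stated. The p-values therefore measure the spread between these 4 samples alone, and that spread may be technical.

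Total counts were 50538355 and 53640611 in the libraries labelled SphK1 -/- and 44277592 and 46449606 in the control libraries. Sphk1 itself had 35 and 18 reads in the libraries labelled SphK1 -/-, against 2 and 4 reads in the control libraries (log2 fold change 3.12 ± 0.66, SE; edgeR adjusted p = 0.0233). That call was lost in 5 of 12 alternatives: DESeq2 (adjusted p = 0.0714), single-copy genes (0.128), and without SphK1 -/- replicate 1 (0.239), control replicate 1 (0.162) or control replicate 2 (0.0746). The direction held in all 12, with log2 fold changes of 2.54 to 3.64. The direction goes against the labels, so the groups are called by their labels throughout. With 2 to 35 reads per library the gene was almost silent under both labels, and the exons removed are not known. These reads alone therefore cannot decide on the genotype. Levels are CPM, read counts normalised to library size with TMM scaling, an adjustment of library size that assumes most genes do not differ. Log2 fold changes are SphK1 -/- label over control and come with their standard error (SE). Of 12 tested T cell markers 0 were called in edgeR, DESeq2 or limma-voom and 2 were lower at an unadjusted p under 0.05 in edgeR, and the list summed to 5010 and 5241 CPM in the libraries labelled SphK1 -/- and to 5108 and 5521 CPM in the control libraries. Both libraries labelled SphK1 -/- lay below both controls for 8 of the 12 markers and above them for 0, where 23.8% and 21.0% of all genes tested did, and the median log2 fold change of the list was −0.21, against −0.02 over all genes tested. The part of this in the results on the 35 genes was not tested. In bulk RNA, fewer cells of a type and less RNA per cell cannot be told apart.

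Cells hold peroxides in check with thiols. Glutathione is a tripeptide made from glutamate, cysteine and glycine, and glutathione peroxidases and transferases spend it on peroxides and electrophiles before glutathione reductase restores it with NADPH. Thioredoxin is a small protein with a reactive pair of cysteines that thioredoxin reductase restores, also with NADPH, and that in turn restores the peroxiredoxins. The transcription factor NRF2, encoded by Nfe2l2 and held down by KEAP1, raises many of these genes under oxidative or electrophilic stress. Activated T cells depend on glutathione to grow and on GPX4 to survive lipid peroxidation.

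Of the 35 genes, 3 were higher in the libraries labelled SphK1 -/- at an adjusted p under 0.05 in edgeR, and 0 were lower. They were Gpx4, Prdx1 and Glrx. Over all genes tested, 6.0% were higher and 0.752% lower, 6.75% in all, against 8.57% and 0% of the 35, so the counts lie near the background. At an unadjusted p under 0.05 in edgeR, 5 of the 35 were higher and 2 lower, 20% of them against 14.9% of all genes tested. DESeq2 called 4 of the 35 higher and 0 lower, beside 885 and 143 of 17747 genes. For limma-voom the counts were 3 and 0, beside 746 and 88 of 12758 genes. The libraries of the 2 labels did not overlap in CPM for 15 of the 35 genes, 7 higher and 8 lower, which is 42.9% of them against 44.8% of all genes tested. Over all genes tested 21.0% lay above and 23.8% below the controls in this way. The median log2 fold change was −0.05 over the 35 genes and −0.02 over all genes tested. The log2 fold change was at most 0.82 in size in each of the 32 genes that did not pass, and for 27 of the 32 the 95% interval lay within 1 log2 unit on either side of 0. With scaling to library totals alone the median of all genes moved to −0.26, and over all genes 652 were higher and 1432 lower, in place of 765 and 96. Under that scaling Gpx4 alone of the 35 was higher, and 8 were lower. These were Gclc (edgeR adjusted p = 0.0256), Cat (0.0300), Gsr (0.0322), Gclm (0.0412), Txn2 (0.0412), Hmox1 (0.0440), Txnrd1 (0.0450) and Gsto1 (0.0468).

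**Figure D1:**
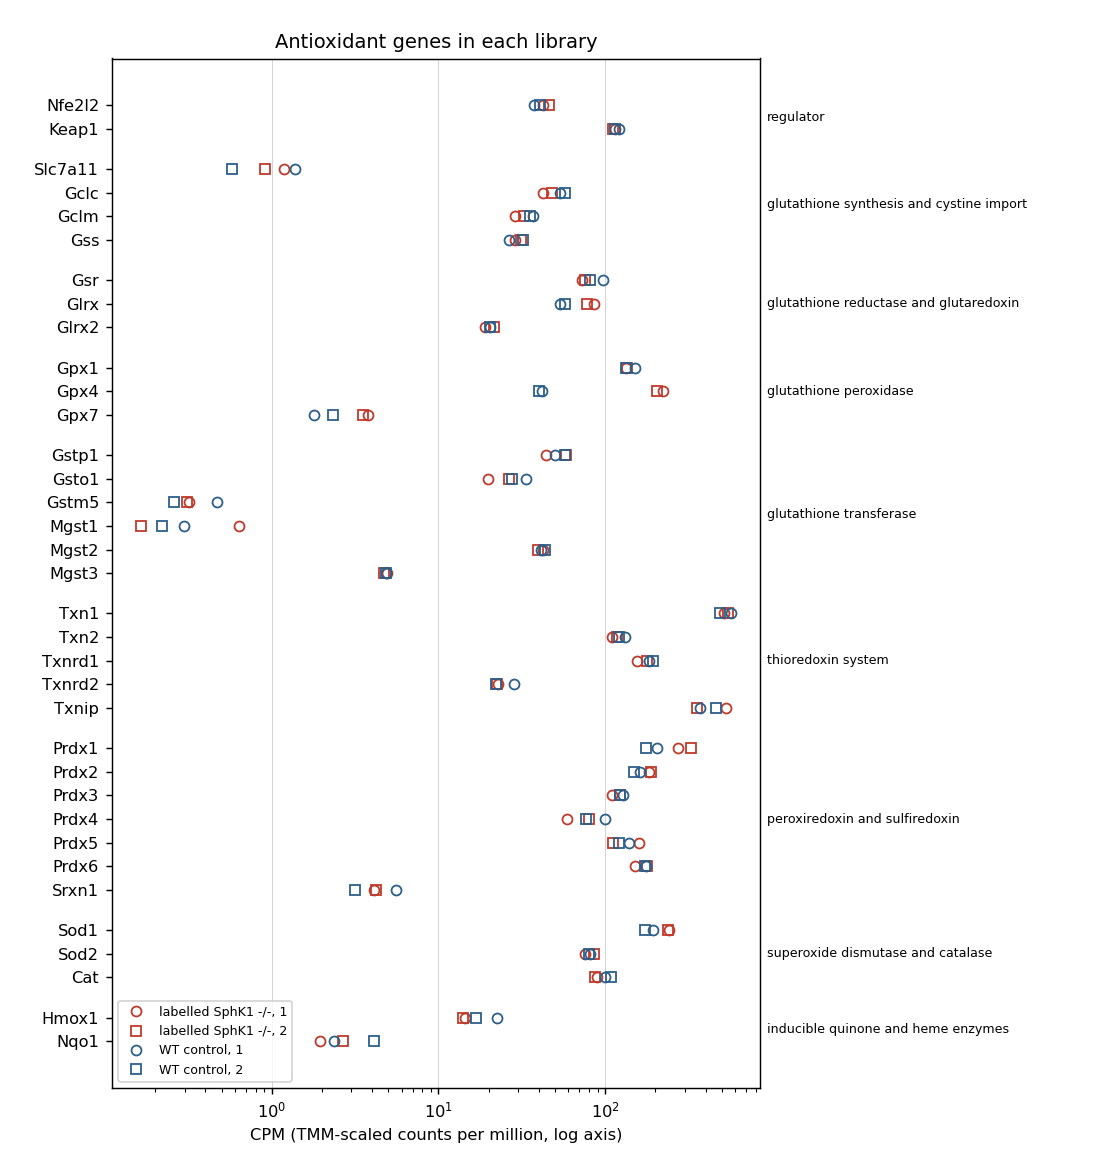
CPM of each of the 35 genes (log axis) in the 2 libraries labelled SphK1 -/- (red) and the 2 control libraries (blue), grouped by role, with circles for replicate 1 and squares for replicate 2. The red and blue points of Gpx4 stand far apart, at 203 to 221 CPM in the libraries labelled SphK1 -/- and 40.0 to 41.9 CPM in the control libraries, while those of most other genes lie close together or overlap.

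**Figure D2:**
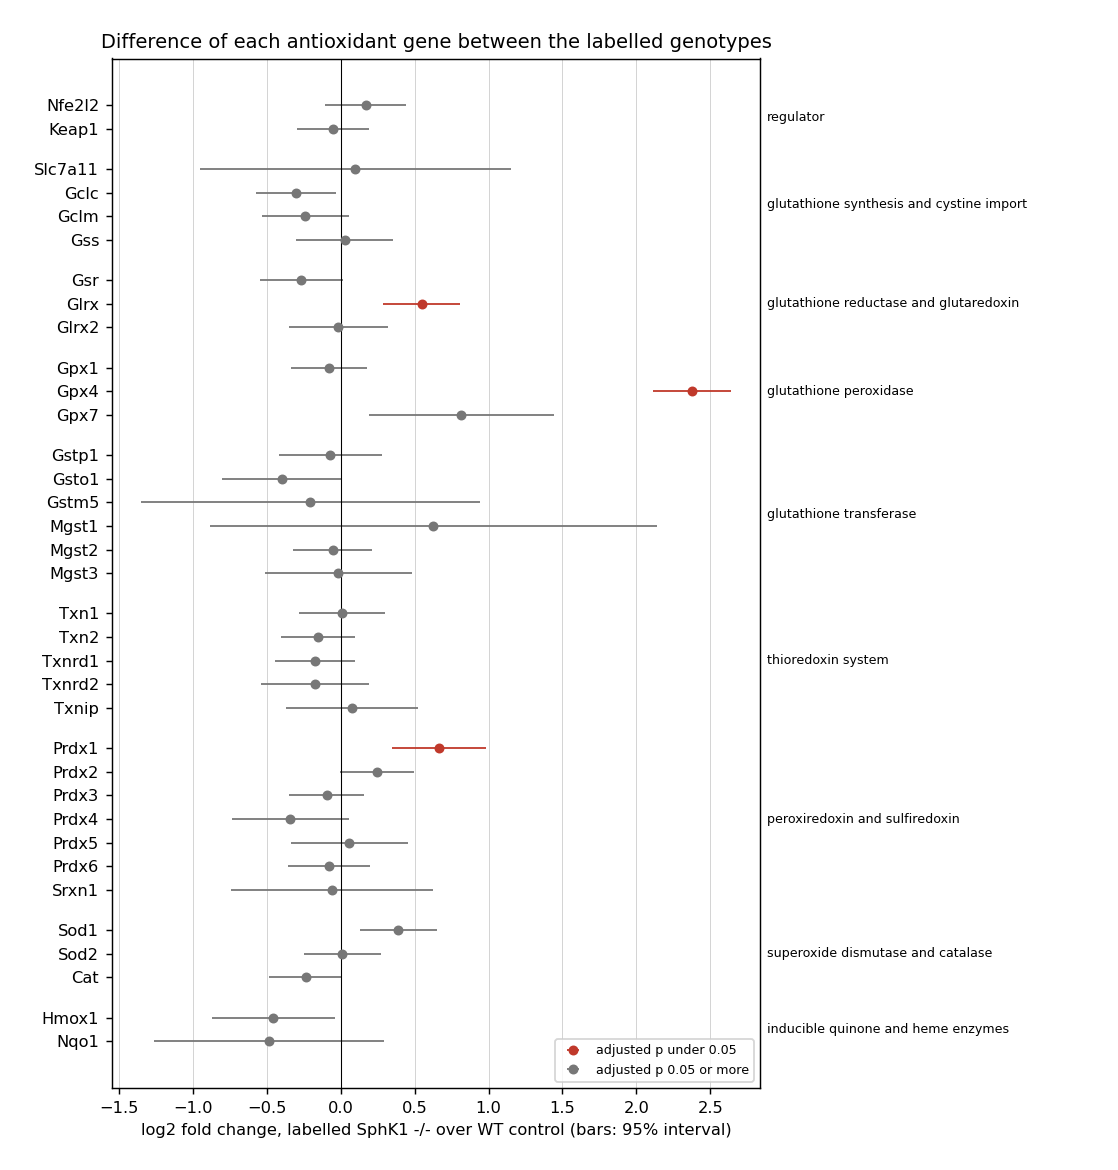
Log2 fold change (SphK1 -/- label over control) of each of the 35 genes with its 95% interval, grouped by role and red where the edgeR adjusted p was under 0.05. Gpx4 stands at 2.38 and Prdx1 and Glrx at 0.67 and 0.55, and the remaining 32 genes lie between −0.48 and 0.82. With library totals alone, where the median of all genes is −0.26, the count of genes above 0 is 7 in place of 14.

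Neither regulator passed the threshold. Nfe2l2 stood at 42.1 and 45.7 CPM in the libraries labelled SphK1 -/- and 37.4 and 40.7 CPM in the control libraries. Its log2 fold change was 0.17 ± 0.12 (SE; 95% interval −0.10 to 0.44; edgeR adjusted p = 0.597), and it was −0.07 with scaling to library totals alone. Keap1, the adaptor that marks NRF2 for degradation, stood at 115 and 111 CPM under the SphK1 -/- label and at 120.4 and 114 CPM under the control label, so the libraries overlapped. Its 95% interval ran from −0.29 to 0.19 on the log2 scale.

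Among the genes that make glutathione, none passed the threshold. Gclc, the catalytic subunit of the rate-limiting glutamate-cysteine ligase, stood at 42.5 and 47.7 CPM in the libraries labelled SphK1 -/- and at 53.5 and 57.5 CPM in the control libraries. The libraries did not overlap, and the log2 fold change was −0.30 ± 0.12 (SE; edgeR adjusted p = 0.267). Gclm, the modifier subunit of the same ligase, stood at 28.8 and 32.6 CPM under the SphK1 -/- label and 36.9 and 35.6 CPM under the control label, again without overlap (log2 fold change −0.24; adjusted p = 0.462). Gss, glutathione synthetase, which adds the glycine, averaged 29.9 ± 1.84 CPM under the SphK1 -/- label and 29.4 ± 3.86 CPM under the control label (SD, n = 2 each). Slc7a11, the cystine carrier of the plasma membrane, was almost silent, with 56 and 44 reads in the libraries labelled SphK1 -/- and 65 and 29 reads in the control libraries. Its 95% interval ran from −0.95 to 1.15 on the log2 scale, so differences within that range remain possible.

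Glrx rose in the libraries labelled SphK1 -/-. It encodes cytosolic glutaredoxin, which uses glutathione to free protein cysteines from mixed disulfides. Its level was 85.3 and 77.4 CPM in the libraries labelled SphK1 -/-, against 53.7 and 57.6 CPM in the control libraries. Every library labelled SphK1 -/- stood above both controls, with a log2 fold change of 0.55 ± 0.11 (SE; edgeR adjusted p = 0.0201). Glrx (chr13:75839868-75850154, GRCm38) shares 0.888% of its 30-base words with other annotated genes, and of the 3 it is the one with almost no shared sequence. The call was lost without SphK1 -/- replicate 1 (adjusted p = 0.162), without control replicate 1 (0.0679), with library totals alone (0.0844) and in a fit over single-copy genes (0.0848), while the direction held in all 13 alternatives. Its mitochondrial relative Glrx2 averaged 20.2 ± 1.71 CPM under the SphK1 -/- label and 20.4 ± 0.0483 CPM under the control label (SD, n = 2 each). Gsr, glutathione reductase, stood at 72.2 and 75.5 CPM in the libraries labelled SphK1 -/- and at 96.6 and 81.0 CPM in the control libraries. The libraries did not overlap, but the log2 fold change of −0.27 did not pass (adjusted p = 0.372).

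Gpx4 had the largest difference of the 35 genes. It encodes the selenoenzyme that reduces lipid hydroperoxides within membranes and protects cells from ferroptosis. Its reads numbered 10397 and 9881 in the libraries labelled SphK1 -/-, against 1966 and 2007 in the control libraries, which is 221 and 203 CPM against 41.9 and 40.0 CPM. The libraries of each label lay close to each other and far from those of the other label, with a log2 fold change of 2.38 ± 0.12 (SE; edgeR adjusted p = 1.64e-06). The call held in all 12 alternatives in which it could be fitted, with log2 fold changes of 2.14 to 2.44. Gpx4 (chr10:80047166-80056439, GRCm38) shares 39.2% of its 30-base words with other annotated genes, so its counts are uncertain where reads fit several places, and the counting rule for such reads is not given in the sources used.

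The copy behind most of these shared words is Gpx4-ps2 (chr10:45875291-45876086, GRCm38), annotated as a transcribed processed pseudogene. That name is not among the named genes of the count table, so it has no counts to compare. Over the 538 coding bases that could be aligned without a gap, pseudogene and gene differ at 2 positions, and 79.9% of the 30-base words of the Gpx4 coding sequence occur in the pseudogene. The stretches below, from GENCODE release M21, show how few bases could place a read. They are coding bases 142 to 291 of the longest principal Gpx4 transcript and the matching stretch of the pseudogene, 150 bases each, 5′ to 3′, on the strand of each gene. Capitals mark the position at which they differ.
Gpx4: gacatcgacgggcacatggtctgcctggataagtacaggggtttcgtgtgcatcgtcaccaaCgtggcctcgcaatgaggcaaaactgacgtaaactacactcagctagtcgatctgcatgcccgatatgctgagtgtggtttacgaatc
Gpx4-ps2: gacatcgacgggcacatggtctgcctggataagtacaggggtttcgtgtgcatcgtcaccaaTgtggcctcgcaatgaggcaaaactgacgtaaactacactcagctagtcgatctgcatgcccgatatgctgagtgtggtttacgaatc
The pair differs at 1 of 150 positions. The stretch of the gene is centred on codon 73, the in-frame tga that is read as selenocysteine, the catalytic residue of the enzyme, and the pseudogene retains it.

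The other glutathione peroxidases gave no call. Gpx1, the abundant cytosolic enzyme, stood at 133 and 135 CPM in the libraries labelled SphK1 -/- and 150.4 and 134 CPM in the control libraries, with a 95% interval of −0.34 to 0.17 on the log2 scale. It shares 0% of its words with other annotated genes. Gpx7, a peroxidase of the endoplasmic reticulum, stood at 3.77 and 3.50 CPM under the SphK1 -/- label, against 1.79 and 2.33 CPM under the control label. Its libraries did not overlap, and its log2 fold change of 0.82 ± 0.27 (SE) missed the threshold (edgeR adjusted p = 0.169).

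The glutathione transferases, which attach glutathione to electrophiles, gave no call among 6 genes. Gstp1, which inactivates electrophiles in the cytosol, averaged 51.1 ± 9.87 CPM in the libraries labelled SphK1 -/- and 53.6 ± 5.07 CPM in the control libraries (SD, n = 2 each). It shares 38.8% of its words with Gstp2 and other genes, and its log2 fold change was −0.07 ± 0.15 (SE). Counts of Gstp2 itself were 18 and 32 under the SphK1 -/- label and 1 and 6 under the control label. A split of reads between the copies was not tested. Gsto1, an omega-class transferase, stood at 19.8 and 26.4 CPM in the libraries labelled SphK1 -/- and at 33.4 and 27.4 CPM in the control libraries. It was the only transferase of the 6 whose libraries did not overlap (log2 fold change −0.40; edgeR adjusted p = 0.354). The membrane-bound Mgst2 averaged 40.8 ± 1.84 CPM under the SphK1 -/- label and 42.4 ± 1.86 CPM under the control label, and Mgst3 averaged 4.81 ± 0.170 CPM and 4.87 ± 0.00833 CPM under the same labels (SD, n = 2 each). Mgst1 and Gstm5 were at the edge of detection, with 30 and 8 and with 15 and 15 reads in the libraries labelled SphK1 -/-, against 14 and 11 and against 22 and 13 reads in the control libraries. A floor of 3 counts corresponds to 0.0598 to 0.0639 CPM, and the 95% intervals ran from −0.89 to 2.14 for Mgst1 and from −1.35 to 0.94 for Gstm5 on the log2 scale.

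The 5 genes of the thioredoxin system gave no call. Txn1, cytosolic thioredoxin, stood at 519 and 542 CPM in the libraries labelled SphK1 -/- and at 567 and 488 CPM in the control libraries. The control libraries enclosed the others, and the 95% interval ran from −0.28 to 0.30 on the log2 scale. Txnrd1, cytosolic thioredoxin reductase, stood at 155 and 178 CPM under the SphK1 -/- label and 182 and 194 CPM under the control label. Txn2, the mitochondrial thioredoxin, stood at 109.6 and 118 CPM under the SphK1 -/- label and 131 and 122 CPM under the control label. Neither Txnrd1 nor Txn2 overlapped between labels, and their log2 fold changes of −0.17 and −0.15 did not pass (edgeR adjusted p = 0.580 and 0.608). Txnrd2, the mitochondrial reductase, averaged 22.5 ± 0.224 CPM under the SphK1 -/- label and 25.4 ± 4.43 CPM under the control label (SD, n = 2 each). Txnip, which binds and inhibits thioredoxin and also lowers glucose uptake, varied more between libraries of 1 label than between labels, with 528 and 357 CPM in the libraries labelled SphK1 -/- and 373 and 466 CPM in the control libraries.

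Prdx1 rose in the libraries labelled SphK1 -/-. It encodes a cytosolic peroxiredoxin that reduces hydrogen peroxide and is restored by thioredoxin. Its level was 272 and 329 CPM in the libraries labelled SphK1 -/-, against 204 and 175 CPM in the control libraries. The libraries did not overlap, and the log2 fold change was 0.67 ± 0.14 (SE; edgeR adjusted p = 0.0209). The call was lost without SphK1 -/- replicate 2 (adjusted p = 0.0986), without control replicate 2 (0.0751) and with library totals alone (0.0552). Prdx1 (chr4:116685544-116700822, GRCm38) shares 15.9% of its words with other annotated genes, so its counts too are uncertain where reads fit several places.

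2 processed pseudogenes hold most of the shared coding words of Prdx1. Gm21399 (chr8:129252998-129253594) and Gm7204 (chr16:48218605-48219201) match the 597 coding bases of Prdx1 with 98.3% and 97.5% identity and hold 54.0% and 46.3% of its coding words. Neither name is among the named genes of the count table. The stretches below are coding bases 223 to 372 and the matching bases of each pseudogene, from GENCODE release M21 on GRCm38, printed 5′ to 3′ on the strand of each gene. Capitals mark the positions at which the 3 are not all alike.
Prdx1: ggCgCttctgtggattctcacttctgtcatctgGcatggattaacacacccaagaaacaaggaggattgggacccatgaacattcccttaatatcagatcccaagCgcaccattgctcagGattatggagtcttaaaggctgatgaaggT
Gm21399: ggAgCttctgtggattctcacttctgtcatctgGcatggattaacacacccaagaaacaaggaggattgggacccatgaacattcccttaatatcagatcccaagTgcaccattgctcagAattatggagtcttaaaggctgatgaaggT
Gm7204: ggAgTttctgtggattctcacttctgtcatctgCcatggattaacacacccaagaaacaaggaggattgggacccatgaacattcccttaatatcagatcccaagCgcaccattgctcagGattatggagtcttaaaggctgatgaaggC
Gm21399 differs from Prdx1 at 3 and Gm7204 at 4 of the 150 positions, against 1 in the stretch of the Gpx4 pair.

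The other peroxiredoxins gave no call. Prdx2, a cytosolic peroxiredoxin best known from red cells, stood at 182 and 188 CPM in the libraries labelled SphK1 -/- and 162 and 149 CPM in the control libraries (log2 fold change 0.25; edgeR adjusted p = 0.349). Its libraries did not overlap, and it shares 7.62% of its words, most of them with the pseudogene Tdpx-ps1. Prdx3, the mitochondrial form, averaged 117 ± 8.79 CPM under the SphK1 -/- label and 125 ± 3.59 CPM under the control label (SD, n = 2 each). Prdx4, the form of the endoplasmic reticulum, stood at 59.4 and 79.6 CPM under the SphK1 -/- label and 99.2 and 76.8 CPM under the control label, with overlap. Prdx5, found in several compartments, averaged 136 ± 34.9 CPM and Prdx6, the 1-cysteine form, 165 ± 19.4 CPM in the libraries labelled SphK1 -/-, against 130.2 ± 12.7 CPM and 175 ± 2.25 CPM in the control libraries (SD, n = 2 each). Srxn1, sulfiredoxin, which repairs over-oxidised peroxiredoxins, was low at 4.08 and 4.24 CPM under the SphK1 -/- label and 5.53 and 3.15 CPM under the control label.

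Superoxide dismutases turn superoxide into hydrogen peroxide, and catalase breaks hydrogen peroxide down. Sod1, the cytosolic dismutase, stood at 243 and 239 CPM in the libraries labelled SphK1 -/- and at 193 and 174 CPM in the control libraries. The libraries did not overlap, and the log2 fold change of 0.39 ± 0.11 (SE) missed the threshold in edgeR (adjusted p = 0.1003) and passed it in DESeq2 (0.0361). Sod1 shares 5.57% of its words, most of them with the processed pseudogene Gm8566. Sod2, the mitochondrial dismutase, averaged 81.0 ± 7.41 CPM under the SphK1 -/- label and 80.4 ± 1.23 CPM under the control label (SD, n = 2 each), and it shares 27.1% of its words. Cat, catalase, stood at 89.0 and 87.2 CPM in the libraries labelled SphK1 -/- and 99.5 and 108 CPM in the control libraries, without overlap (log2 fold change −0.24 ± 0.11; edgeR adjusted p = 0.363).

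The inducible enzymes Hmox1 and Nqo1 gave no call. Hmox1, heme oxygenase 1, stood at 14.4 and 14.1 CPM in the libraries labelled SphK1 -/- and at 22.4 and 16.7 CPM in the control libraries. The libraries did not overlap, and the log2 fold change was −0.46 ± 0.18 (SE; edgeR adjusted p = 0.275). Nqo1, a quinone reductase, stood at 1.96 and 2.66 CPM under the SphK1 -/- label and 2.36 and 4.09 CPM under the control label, with overlap and an interval of −1.26 to 0.29 on the log2 scale.

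Levels of different genes were compared per kilobase of the longest principal transcript, as CPM per kb. Txn1 ranked highest and Sod1 next of the 35 in each of the 4 libraries, and Slc7a11 ranked 35 in each. Txn1 averaged 505 CPM per kb under the SphK1 -/- label and 502 CPM per kb under the control label, while Slc7a11 averaged 0.114 and 0.106 CPM per kb. Gpx4 ranked 3 in both libraries labelled SphK1 -/- and 15 and 16 in the control libraries. Among the peroxidases, Gpx1 at 125 CPM per kb was below Gpx4 at 221 CPM per kb under the SphK1 -/- label, whereas under the control label Gpx1 stood at 133 CPM per kb and Gpx4 at 42.7 CPM per kb. The cytosolic reductase Txnrd1 exceeded the mitochondrial Txnrd2 in every library, at 47.2 against 7.84 CPM per kb under the SphK1 -/- label and 53.3 against 8.84 CPM per kb under the control label.

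Of the 9 members that share 5% or more of their words, 2 were higher, and of the 26 below that limit 1 was higher. Over all genes tested, 31.0% of the 1956 genes with 5% or more shared words were higher, against 1.45% of the 10718 below that limit. The median log2 fold change was 0.01 over the 9 members and 0.29 over the 1956 genes. Members below the limit had a median of −0.08, beside −0.04 over the 10718 genes. The part of multiply placed reads in the differences of Gpx4 and Prdx1 was not tested.

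**Figure D3:**
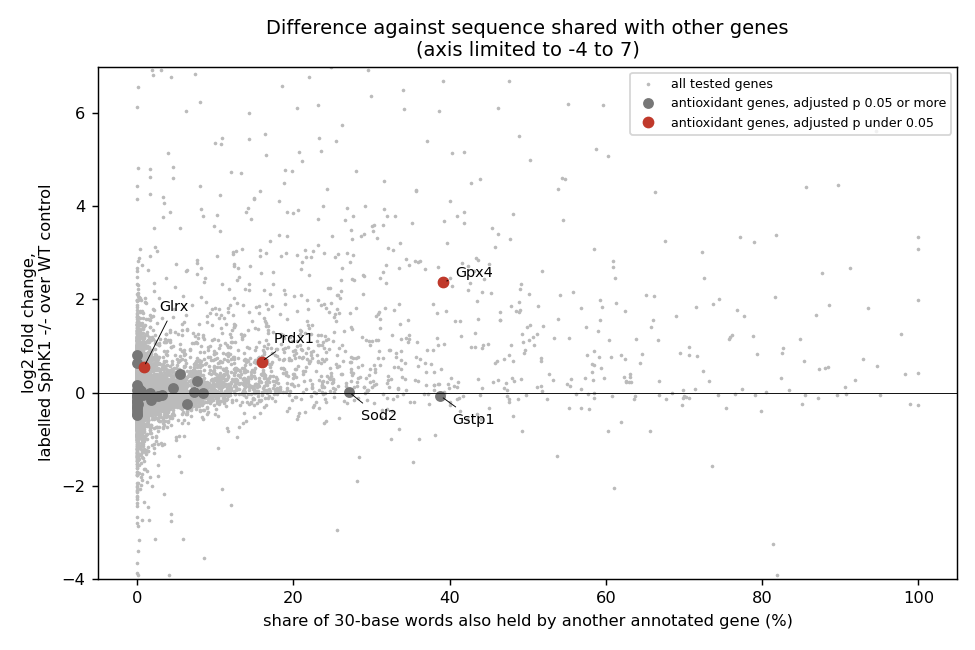
Log2 fold change (SphK1 -/- label over control) against the share of a gene's 30-base words that another annotated gene also holds, for all genes tested that could be placed on the annotation (grey) and the 35 genes described (dark grey, or red at an edgeR adjusted p under 0.05). Gpx4 lies at 39.2% shared words and a log2 fold change of 2.38, Prdx1 at 15.9% and 0.67, Sod2 at 27.1% and 0.01, and Gstp1 at 38.8% and −0.07. The axis leaves out 78 of 12674 genes.

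NRF2 binds the antioxidant response element, whose core is searched here as TGACNNNGC on either strand (GCNNNGTCA on the other). Promoter windows of 250 bases before to 50 bases after the start, from RefSeq on GRCm38.p6, were matched for 31 of the 35 genes. The core occurred in a window of 8 of the 31 genes (25.8%), against 13.99% of the 27025 genes with a window. Some genes have several windows. Counted by window, the core occurred in 8 of 41 (19.5%), against 12.4% of all 32851 windows. The matches are shown with 10 bases on either side, on the strand of the gene, with the core in capitals. A match is a description of the letters and not a binding site.
Prdx1 (chr4:116685456-116685484, plus strand): cagggaaagcGCTGAGTCAtcccccgtag
Nfe2l2 (chr2:75704885-75704913, minus strand): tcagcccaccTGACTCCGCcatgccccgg
Gclm (chr3:122245413-122245441, plus strand): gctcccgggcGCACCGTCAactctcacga
Txnrd1 (chr10:82859104-82859132, plus strand): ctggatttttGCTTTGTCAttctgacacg
Srxn1 (chr2:152105542-152105570, plus strand): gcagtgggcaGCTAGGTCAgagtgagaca
Sod1 (chr16:90220696-90220724, plus strand): gccaaggtggGCGTGGTCAgactcaggcc
Gstm5 (chr3:107895802-107895830, plus strand): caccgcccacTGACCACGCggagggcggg
Mgst1 (chr6:138140461-138140489, plus strand): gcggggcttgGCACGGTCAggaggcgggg
Of these 8 genes Prdx1 alone passed the threshold, and the log2 fold changes of the others ran from −0.24 for Gclm to 0.63 for Mgst1. The Prdx1 core lies 133 bases before the start in the window chr4:116685349-116685648 on the plus strand, which is printed whole, 5′ to 3′. This window was chosen after the values were seen, and the part of the motif in the difference of Prdx1 was not tested.
Prdx1 promoter: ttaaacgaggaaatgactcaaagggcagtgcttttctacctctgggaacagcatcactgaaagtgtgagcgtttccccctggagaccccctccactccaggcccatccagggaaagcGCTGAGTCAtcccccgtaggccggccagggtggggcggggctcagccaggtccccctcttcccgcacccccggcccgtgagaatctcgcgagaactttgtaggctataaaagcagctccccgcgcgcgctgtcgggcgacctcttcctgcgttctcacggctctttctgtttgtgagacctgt

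Related genes that are not among the 35 were grouped in 7 lists, and 5 of the 7 genes that passed in them were higher. Over all 12758 genes tested 861 passed in edgeR, which is 6.75%, and 765 of the 861 were higher. Of 27 tested other glutathione genes, 2 were higher and 1 lower, where 6.0% and 0.752% of all genes tested were. Glo1, which detoxifies methylglyoxal with glutathione, stood at 94.4 and 106 CPM in the libraries labelled SphK1 -/- and 35.9 and 37.9 CPM in the control libraries (log2 fold change 1.44; edgeR adjusted p = 4.99e-05). Esd, a hydrolase of formylglutathione, stood at 136 and 137 CPM under the SphK1 -/- label and 96.4 and 95.01 CPM under the control label (0.51; 0.0178). Ggt1, which breaks down glutathione outside the cell, fell, with 4.02 and 3.01 CPM under the SphK1 -/- label against 6.96 and 8.27 CPM under the control label (−1.12; 0.0256). The call of Ggt1 was lost without SphK1 -/- replicate 2 (adjusted p = 0.135), without control replicate 2 (0.0847) and among single-copy genes (0.169), and that of Esd without either library labelled SphK1 -/- (0.0764 and 0.0800) and with library totals alone (0.0741).

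Of 16 tested genes of NRF2 regulation 1 was higher and 0 lower, and of 23 other NRF2 targets 1 was higher and 0 lower. Over all genes tested, 6.0% were higher and 0.752% lower. Both libraries labelled SphK1 -/- lay below both controls for 6 of the 16 and 10 of the 23, and above for 3 and 4, beside 23.8% and 21.0% of all genes. At an unadjusted p under 0.05 in edgeR, 1 and 1 were higher and 4 and 4 lower, where 14.9% of all genes passed. DESeq2 called 1 and 2, and limma-voom 1 and 1. Over all genes DESeq2 called 1028 of 17747 (885 higher, 143 lower) and limma-voom 834 of 12758 (746 higher, 88 lower). Rbx1, the RING subunit of cullin ubiquitin ligases including the one that KEAP1 recruits, stood at 109 and 112 CPM in the libraries labelled SphK1 -/- and 64.4 and 55.2 CPM in the control libraries (log2 fold change 0.88; edgeR adjusted p = 0.00158). Ftl1, the light chain of the iron store ferritin, stood at 895 and 802 CPM under the SphK1 -/- label and 178 and 200.3 CPM under the control label (2.17; 7.98e-06). It shares 55.8% of its words, and 34.6% of its exonic bases lie under another gene. Glo1, Esd and Rbx1 share 9.63%, 12.4% and 5.72% of their words.

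In the list of NADPH supply, 1 of 14 tested genes was higher and 1 lower, beside the same shares of all genes tested. Nnt, the mitochondrial transhydrogenase that makes NADPH, stood at 39.9 and 37.8 CPM in the libraries labelled SphK1 -/- and 13.8 and 15.3 CPM in the control libraries (log2 fold change 1.41; edgeR adjusted p = 0.000188). Nnt shares 0.755% of its words, and 47.4% of its exonic bases lie under another gene. Aldh1l2, a mitochondrial folate enzyme that also yields NADPH, had 3.66 and 3.44 CPM under the SphK1 -/- label and 6.83 and 6.54 CPM under the control label (−0.91; 0.0406). Its call was lost with each removal of a library (adjusted p 0.0699 to 0.181), with TMM on single-copy genes (0.0511) and with a minimum count of 50 (0.0538). The list had a median log2 fold change of −0.24, against −0.02 over all genes tested. Both libraries labelled SphK1 -/- lay below both controls for 7 of the 14 genes and above them for 3, beside 23.8% and 21.0% of all genes tested. At an unadjusted p under 0.05 in edgeR, 1 was higher and 5 lower, where 14.9% of all genes tested passed. DESeq2 called 3 and limma-voom 2, beside 1028 of 17747 and 834 of 12758 genes.

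Macrophage and monocyte markers, 1 of 5 tested higher, summed to 30.02 and 18.5 CPM under the SphK1 -/- label and 11.3 and 14.6 CPM under the control label, with Marco at 0 in all libraries. B cell markers, 2 of 7 tested higher, summed to 379 and 180.4 CPM under the SphK1 -/- label and 175 and 185 CPM under the control label. Their part in the differences of the 35 genes was not tested. Summed markers stood at 288 and 138 CPM (dendritic cells), 2.74 and 1.54 CPM (neutrophils), 161 and 89.4 CPM (NK cells) and 0.702 and 0.577 CPM (red cells) under the SphK1 -/- label, and at 253 and 194, 0.553 and 1.38, 146 and 82.9, and 0.660 and 0.558 CPM under the control label. Of these lists, 1 of 6 dendritic and 1 of 6 NK markers tested were higher, and Klra4, Klra8, Hba-a1 and Hba-a2 were at 0 in all libraries. These counts and those of the macrophage and B cell markers stand beside 6.0% higher over all genes tested. The dendritic sums rest mainly on H2-Aa and H2-Ab1, and the NK sums on Gzma and Eomes. In SphK1 -/- replicate 1 these gave 147 and 131 of the 288 CPM, and 78.8 and 57.9 of the 161 CPM. Both libraries labelled SphK1 -/- lay above both controls for 3 of the 6 dendritic and 4 of the 6 NK markers. They lay below for 0, beside 21.0% above and 23.8% below over all genes tested. In the order macrophage and monocyte, B cell, dendritic and NK, DESeq2 called 1, 1, 2 and 1 markers and limma-voom 0, 1, 0 and 1. Other thioredoxin and glutaredoxin genes (24 tested), other superoxide and peroxide genes (13 tested) and selenoprotein synthesis (10 tested) gave 0 calls at an adjusted p under 0.05 in edgeR. At an unadjusted p under 0.05 in edgeR, 14.9% of all genes tested passed. By that measure, 1 thioredoxin or glutaredoxin gene was higher and 1 lower, 3 superoxide and peroxide genes were lower, and 0 genes of selenoprotein synthesis passed. DESeq2 called 1, 2 and 0 genes of these 3 lists in that order, and limma-voom called 0 in each. These counts and those of the markers stand beside 1028 of 17747 genes in DESeq2 and 834 of 12758 in limma-voom.

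**Figure D4:**
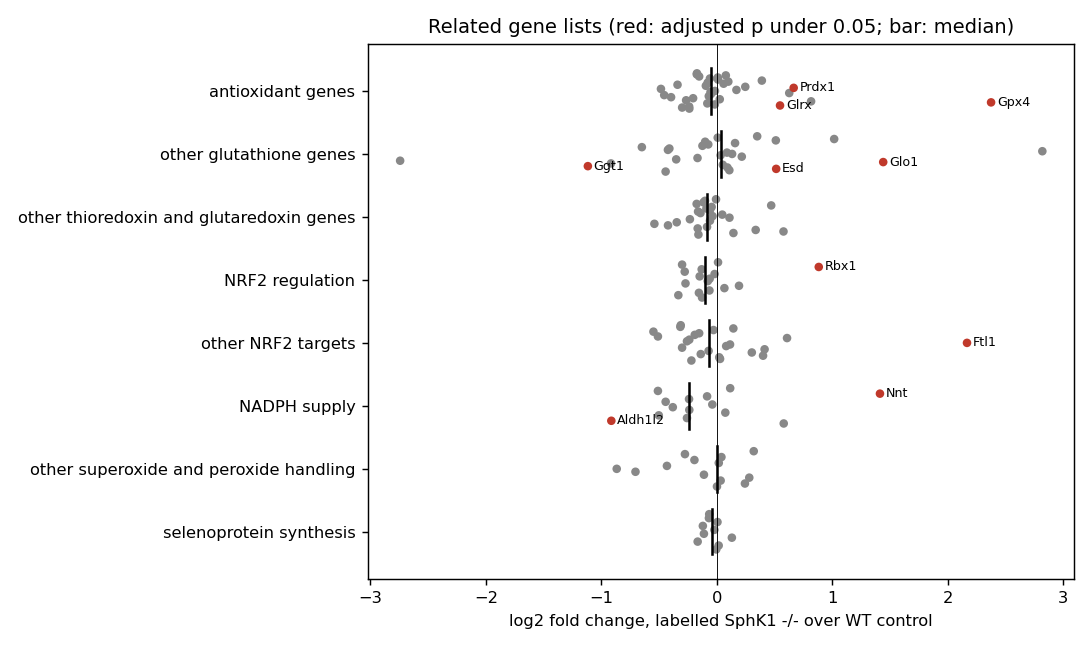
Log2 fold changes (SphK1 -/- label over control) of the 35 antioxidant genes and of the tested genes of 7 related lists, red where the edgeR adjusted p was under 0.05, with a bar at each median. Most points of every list lie near 0, and named red points such as Ftl1 at 2.17 and Nnt at 1.41 stand apart from their list.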

How the data were processed

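RNA-seq raw counts per gene were deposited by the authors as 1 table of 4 libraries, 2 per label. Per the submitters' processing notes, the tools were TopHat2 2.0.13, cutadapt 1.11, DESeq2 1.14.1 and HTSeq 0.6.1p1, on the build GRCm38. The annotation, the strand setting and the handling of reads that fit several places are not given in the sources used here. Of 23419 entries, 720 were nameless and empty in both libraries labelled SphK1 -/- (1.13% and 1.17% of the control counts) and 27 held dates in place of names (0.261% to 0.312% of counts). These were left out of library sizes and tests.

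Counts were tested in R 4.3.3 with the quasi-likelihood F test of edgeR 4.0.16 (TMM scaling, filterByExpr with a minimum count of 10, Benjamini-Hochberg adjustment over the 12758 genes tested, threshold 0.05), and the script was tested on simulated data. Standard errors were derived from the F statistic. Alternatives used DESeq2 1.42.0, limma 3.58.1 (voom), other scalings, filters and gene sets, and the removal of each library. Means ± SD are over n = 2 libraries. The libraries of each label differed from each other by more than sampling noise. Intervals and floors cover what is stated for them, and floors cover counting error only.

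Shared sequence is the share of the 30-base words of a gene's GENCODE M21 transcripts that another annotated gene also holds. Single-copy genes share at most 5% of words and overlap other genes in at most 10% of exonic bases. Symbols of 21753 genes matched the annotation directly and 624 through a synonym, and 295 did not match. All 35 genes are named, with at most the 4 lowest adjusted p-values past the threshold in each related list. The genes and lists were chosen with earlier results of these data known, so they are no independent support for any pattern. The result of 1 further related list is not reported here.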

Additional observations from a re-analysis of the deposited data

How the results depend on the processing

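Over all genes, 861 passed the threshold. Library totals alone gave 2084 genes, with 1 of the 35 antioxidant genes higher and 8 lower, and the fit over single-copy genes gave 71 genes, with 0 of the 21 antioxidant genes it held higher in edgeR. Leaving out each library in turn gave 732 to 1055 genes and 2 to 2 antioxidant genes higher. Of 439 values of the 35 genes under the alternatives, 386 kept direction and side of the threshold, 7 lost and 9 gained a call, and 37 changed sign, 0 of them of Gpx4, Prdx1 or Glrx. The cause was not tested.

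Values with the other sign were, with library totals alone, Nfe2l2 −0.071, Slc7a11 −0.13, Gss −0.22, Txn1 −0.23, Txnip −0.16, Prdx5 −0.18 and Sod2 −0.23 (log2 fold changes). That scaling moved the median of all genes to −0.26, and each of these values lies above it, so their sign follows from the shift. They were Glrx2 0.021 and Mgst3 0.022 with TMM on single-copy genes, Glrx2 0.0056 and Mgst3 0.0074 with a minimum count of 50, Mgst3 0.022 among single-copy genes and Srxn1 0.0041 with limma-voom. With each library left out, log2 fold changes ran from −0.39 to 0.89 for Slc7a11, −0.11 to 0.067 for Glrx2, −0.28 to 0.12 for Gstp1, −0.64 to 1.30 for Mgst1, −0.23 to 0.33 for Txnip, −0.23 to 0.30 for Prdx5, −0.21 to 0.037 for Prdx6 and −0.072 to 0.17 for Gss. They ran from −0.052 to 0.018 for Mgst3, −0.089 to 0.15 for Txn1, −0.087 to 0.10 for Sod2, −0.084 to 0.020 for Keap1, −0.16 to 0.035 for Gpx1, −0.57 to 0.30 for Gstm5, −0.33 to 0.048 for Txnrd2 and −0.40 to 0.43 for Srxn1. A label left with 1 library was assumed to vary like the other.

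With the replicate number as a block, 1120 genes passed, with 3 of the 35 higher and 0 lower. Over all genes tested, the deviations of same-numbered libraries had a correlation of −0.04. That single value cannot decide on a pairing in part of the genes, and the labels do not say whether the numbers mark one. Read counts were low for Slc7a11, Mgst1 and Gstm5, each below 1 CPM in a library, which limits what their values show.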

Other observations

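Gpx3, the secreted glutathione peroxidase, had 28 and 38 reads in the libraries labelled SphK1 -/- and 20 and 442 reads in the control libraries, so control replicate 2 stood apart from the other 3 libraries. Lrp2, an endocytic receptor, also stood apart there, with 2 and 0 reads in the libraries labelled SphK1 -/- and 0 and 73 reads in the control libraries. Both genes were chosen after their values were seen. The metallothioneins Mt1 and Mt2, which bind zinc and copper, were also chosen after their values were seen. Mt1 stood at 247 and 174 CPM in the libraries labelled SphK1 -/- and 401 and 285 CPM in the control libraries (log2 fold change −0.70; edgeR adjusted p = 0.1003). Mt2, with 73.5% of its exonic bases under another gene, stood at 179 and 122 CPM under the SphK1 -/- label. Under the control label it stood at 326 and 224 CPM (log2 fold change −0.87; edgeR adjusted p = 0.0548). Neither passed the threshold in edgeR. DESeq2 called 2 of the 13 tested superoxide and peroxide genes, the list that holds both, beside 1028 of 17747 genes. For limma-voom the count was 0.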
